A study of Arabidopsis thaliana with 12 samples.

Results

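The STP genes encode sugar transport proteins of Arabidopsis thaliana, and 8 of them were followed here: STP1 [AT1G11260], STP3 [AT5G61520], STP4 [AT3G19930], STP7 [AT4G02050], STP9 [AT1G50310], STP12 [AT4G21480], STP13 [AT5G26340] and STP14 [AT1G77210]. They were taken by locus identifier from a table of 32846 genes, and all 8 were found in it. The set was selected on the FPKM values of these libraries in so far as STP9 was known to be near absent in wild type and present in the mutant. Levels of the 8 genes by genotype are therefore given as a description, without a test. Tests are given for the peptide treatment, which the stated pattern of STP9 does not involve. The members were still chosen with earlier results of these data known, so counts of members that rose describe this list only. The names STP1, STP4, STP7, STP9, STP12, STP13 and STP14 are in the reference used (TAIR10.1), while AT5G61520 carries no gene name there and is called STP3 as it was listed.

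STP proteins are symporters of the major facilitator superfamily that sit in the plasma membrane and carry hexoses together with protons from the cell wall space into the cell. Members differ in the sugar they take and in the tissue that uses them: some serve uptake in leaves and roots, and others are known from pollen. In leaves under attack, hexose uptake also matters because microbes feed on sugar in the cell wall space, and STP13 is the member best known for this, being a target of the immune co-receptor BAK1.

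Whole seedlings of the accession Columbia were compared in a design of 2 genotypes by 2 treatments, with 3 libraries in each of the 4 groups. The genotypes were wild type (WT) and a mutant labelled rrm/irr (called irr here), and the treatments were water or AtPep1 at 1 µM for 24 h. AtPep1 is a peptide that plants release from a precursor on wounding and that starts immune signalling through the PEPR receptors. Seedlings were 7 to 10 days old and were pooled, about 15 to a well, in liquid medium, so fewer cells of a type and less RNA per cell cannot be told apart. Only 1 irr line is labelled, without another allele or a complemented line, and effects of the mutation and of other differences of that line cannot be told apart. Nothing in the labels says that replicates were separate cultures, and p-values then measure only the spread between these libraries.

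Library totals recovered from the steps in the values ran from 17.4 to 28.6 M reads (1 M is 1000000) for 11 of the libraries, while the deepest, irr water replicate 3, reached 56.5 M. AT3G23900, the locus known for IRR, stood at 12.8 ± 1.93 FPKM (SD, n = 3) in WT and 11.95 ± 0.72 in irr under water, so its gene-level value does not check the genotype labels. Summed levels of 5 leaf markers, among them the small subunit of Rubisco, were between 64103 and 77703 FPKM in WT under water and between 38113 and 56368 FPKM in the other 9 libraries. Summed levels of 11 root markers were between 33.1 and 42.4 FPKM in WT under water and between 47.9 and 66.4 with Pep1, and in irr between 36.9 and 51.3 under water and between 31.8 and 53.3 with Pep1. The root sums mix markers that moved in opposite ways. With Pep1 in WT, CASP1 went from 10.5 ± 2.30 to 23.7 ± 7.44 FPKM and PIN2 from 2.37 ± 0.938 to 1.18 ± 0.301. EXP7 went from 1.64 ± 0.703 to 3.22 ± 2.27 FPKM in WT and from 4.36 ± 1.51 to 0.486 ± 0.285 in irr. Of 6 root markers tested, 0 rose with Pep1 at an adjusted p under 0.05 (limma). EXP7 fell in irr, and PIN2 fell averaged over both genotypes. Of the 5 leaf markers 0 were called with Pep1 in either genotype, with 4 in WT and 1 in irr at an unadjusted p under 0.05 (limma). Of 18177 genes tested, 3797 in WT and 3315 in irr had such a value. Averaged over both genotypes 2 leaf markers fell, where 11.6% of all genes tested were called. The part of tissue make-up in the results that follow was not tested. Levels are given in FPKM, which scales a gene's fragments by its length and by the library total, so that genes can be compared per length.

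STP1, the main hexose uptake carrier of seedlings, was the most abundant of the family in every library. Its levels were 761, 847 and 925 FPKM in WT under water, 1013, 991 and 957 FPKM in WT with Pep1, 1159, 1202 and 1198 FPKM in irr under water, and 797, 970 and 1270 FPKM in irr with Pep1. The WT groups did not overlap, the irr water libraries were all above those of WT, and the irr Pep1 libraries ran from within the WT water range to above every other library. STP1 made up between 58.7% and 80.3% of the summed FPKM of the 11 STP genes that carry a name here. STP4, a monosaccharide carrier of roots and other sink tissues that is known to rise on wounding and infection, came second with 9.36% to 22.6%. STP14, known from work in yeast as a galactose carrier, held 4.61% to 10.6% and STP13 between 1.77% and 9.76%, and STP13 was above STP14 in irr water replicate 1 and irr Pep1 replicate 2. The share of STP13 differed the most, in proportion, of the 4 most abundant members. STP7, described as a carrier of the cell wall sugars arabinose and xylose, and STP3, a low-affinity carrier of green tissue, each stayed below 2% in every library, at most 1.81% and 1.64%.

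The summed level itself was 1084 ± 94.9 FPKM in WT under water, 1423 ± 51.9 in WT with Pep1, 1616 ± 103 in irr under water and 1544 ± 271 in irr with Pep1 (SD, n = 3). The 3 WT water libraries, at 984, 1093 and 1173 FPKM, were the lowest of all 12. The next lowest was irr Pep1 replicate 1 at 1235 FPKM, a library in which STP1 was also low.

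**Figure D1:**
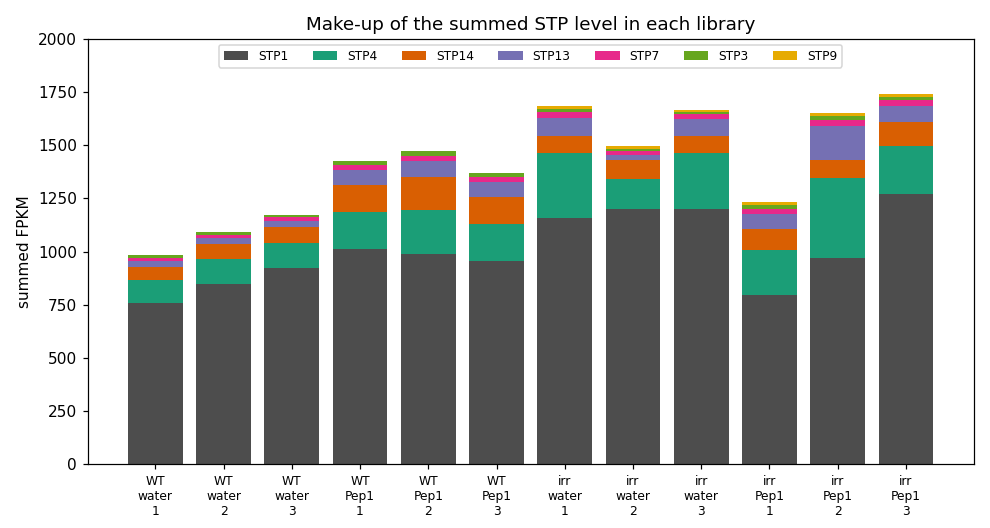
Stacked bars give the FPKM of 7 STP genes in each of the 12 libraries (x axis, group and replicate number; y axis, summed FPKM; STP12, STP11 and STP2 are too low to draw). STP1 is the largest piece of every bar, and the 3 WT water bars are the lowest.

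STP12 and the STP genes outside the 8 were at or near 0 in all libraries, and STP9 was so in WT alone. STP12 was between 0.333 and 0.873 FPKM in the 12 libraries, from 9 to 46 reads, and was the 1 member of the 8 that did not pass the expression filter of 1 FPKM in at least 3 libraries. STP9 passed that filter only through the irr libraries. STP2 and STP6, both known from pollen, reached at most 0.0555 FPKM and 0 FPKM, and STP11, of the pollen tube, reached 0.597 FPKM. The further loci AT1G34580, AT5G26250 and AT3G19940, listed as STP genes but given only as major facilitator superfamily proteins in the reference, reached 0.694, 0.105 and 0 FPKM.

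**Figure D2:**
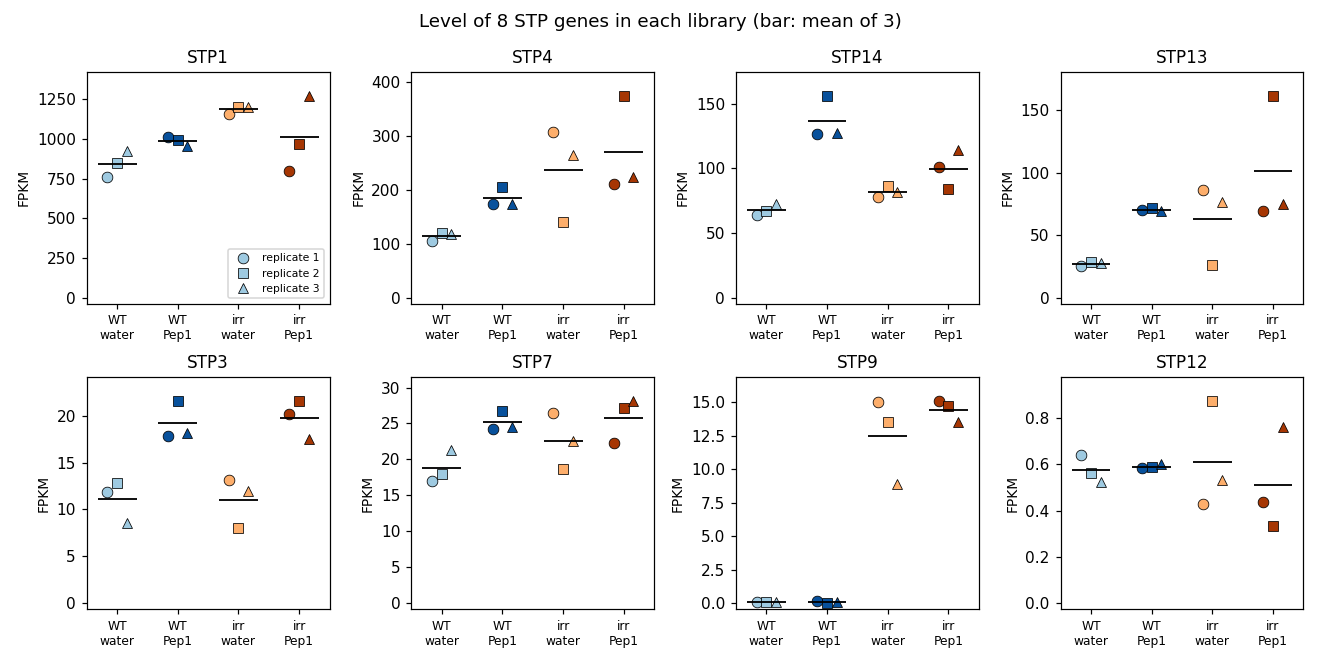
Points are the FPKM of each of the 8 genes in each library (marker shape, replicate number; each panel has its own y axis from 0), and horizontal bars are the mean of 3. STP9 is the 1 gene whose 6 irr libraries all lie above its 6 WT libraries, and STP3 the 1 gene whose 6 Pep1 libraries all lie above its 6 water libraries.

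The first comparison was of Pep1 with water in WT, and asked which sugar carriers respond to the danger peptide. STP14 and STP3 rose, and in 6 of the 8 genes every Pep1 library was above every water library. Over all genes tested, such separation upward was seen in 20.8%, and 3.47% were called at an adjusted p under 0.05, with 2.13% of all genes tested called as rises (limma on log2(FPKM + 1), Benjamini-Hochberg over 18177 genes). Of the 7 members tested 2 rose and 0 fell, with a median log2 difference of 0.68 against 0.04 over all genes tested. The list was chosen with values in view, and these figures describe it only.

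STP14 stood at 63.6, 67.1 and 72.5 FPKM under water and at 126, 156 and 127 FPKM with Pep1. All 3 Pep1 libraries were above all 3 water libraries, by a log2 difference of 0.99 ± 0.12 (SE, limma adjusted p = 0.00287). STP14 was called under all 23 alternative settings tried, with adjusted p from 0.000272 to 0.0196.

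STP3 stood at 11.9, 12.8 and 8.58 FPKM under water in WT and at 17.9, 21.6 and 18.2 FPKM with Pep1. It rose by 0.75 ± 0.18 on the log2 scale, close to the threshold (limma adjusted p = 0.0429). That call was lost when any 1 of the 6 WT libraries or irr Pep1 replicate 1 was left out (adjusted p from 0.0567 to 0.161), and over all alternatives the adjusted p ran from 0.0107 to 0.161.

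STP13, the high-affinity hexose carrier tied to defence, stood at 25.2, 28.6 and 27.5 FPKM under water and at 70.5, 71.9 and 69.0 FPKM with Pep1 in WT. This was the widest separation among the members relative to the spread in WT, with SDs of 1.75 and 1.42 FPKM around means of 27.1 and 70.5 FPKM. The log2 difference of 1.35 ± 0.39 nevertheless missed the threshold (limma adjusted p = 0.0787), since the fit shares 1 estimate of the spread per gene over all 4 groups and the irr libraries varied widely. A fit of only the WT groups called it (limma adjusted p = 7.38e-05), as did library quality weights (0.0193) and leaving out irr water replicate 2 (0.0199) or irr Pep1 replicate 2 (0.0392), and over all alternatives the adjusted p ran from 7.38e-05 to 0.232.

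STP4 was at 105, 119 and 118 FPKM under water and at 174, 206 and 173 FPKM with Pep1 in WT. The groups did not overlap, and the log2 difference was 0.68 ± 0.27 (limma adjusted p = 0.172). STP7 was at 17.01, 18.0 and 21.3 FPKM and at 24.3, 26.7 and 24.5 FPKM, again without overlap (0.41 ± 0.13, adjusted p = 0.113). STP1 had a difference of 0.23 ± 0.15 (adjusted p = 0.41). A fit of only the 2 WT groups called STP4 and STP7 as well (adjusted p = 0.00454 and 0.0372). STP12 overlapped between the groups, at 0.577 ± 0.0591 and 0.591 ± 0.0099 FPKM (SD, n = 3).

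The same comparison in irr gave 1 rise among the 7 members tested, that of STP3, and 0 falls. In irr 1.99% of all genes tested were called, 0.737% as rises, and 7.03% were separated upward without overlap, as 1 member was. The members' median log2 difference was 0.23, against -0.00096 over all genes tested. STP3 stood at 13.1, 7.97 and 11.98 FPKM under water and at 20.3, 21.6 and 17.6 FPKM with Pep1, so its 6 Pep1 libraries in both genotypes lay above its 6 water libraries, as in 1.79% of all genes tested. The log2 difference in irr was 0.81 ± 0.18 (limma adjusted p = 0.0444). The call was lost without any 1 of 10 libraries, namely 5 of WT, all but water replicate 3, and 5 of irr, all but Pep1 replicate 3 (adjusted p from 0.0507 to 0.161), and the range over all alternatives was 0.0234 to 0.238.

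STP13 and STP4 varied widely between the replicates of irr. STP13 was at 85.8, 26.5 and 76.4 FPKM under water and at 69.2, 161 and 74.7 FPKM with Pep1. Replicate 2 was the lowest of its group under water, within the range of the WT water libraries, and the highest of its group with Pep1, while replicates 1 and 3 of both treatments lay between 69.2 and 85.8 FPKM, near the WT Pep1 libraries. STP4 had the same order, at 306, 140 and 265 FPKM under water and at 210, 374 and 224 FPKM with Pep1. The Pep1 difference in irr was 0.74 ± 0.39 for STP13 (95% interval -0.11 to 1.59, limma adjusted p = 0.341) and 0.21 ± 0.27 for STP4 (-0.38 to 0.79, adjusted p = 0.731). For STP4 it turned to -0.13 without irr water replicate 2 and to -0.05 without irr Pep1 replicate 2, and for STP13 the values without 1 library ran from 0.22 to 1.04. With both irr libraries numbered 2 left out, a setting chosen after their values were seen, the differences were -0.39 for STP4 and -0.17 for STP13.

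**Figure D3:**
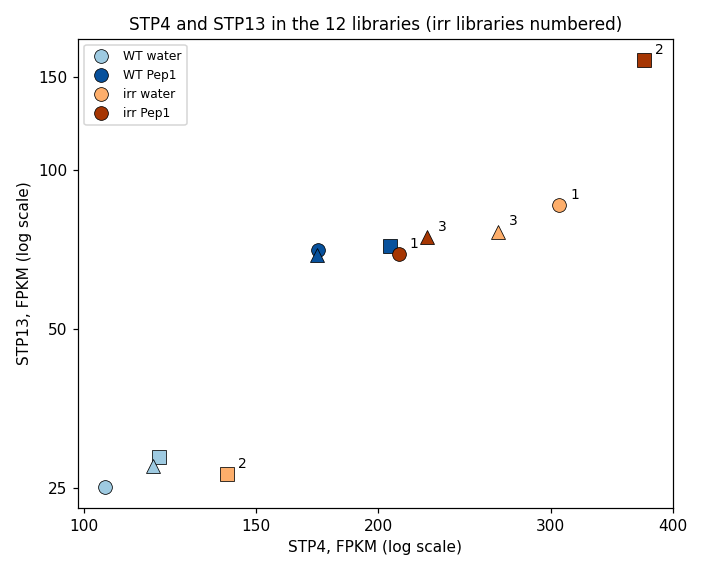
STP4 (x axis) and STP13 (y axis) in FPKM on log scales in the 12 libraries, with the irr libraries numbered by replicate. The irr water library numbered 2 lies beside the WT water libraries, and the irr Pep1 library numbered 2 is the highest for both genes.

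STP14 in irr was at 77.6, 86.5 and 82.0 FPKM under water and at 101, 84.1 and 114 FPKM with Pep1, and the groups overlapped. Its difference was 0.27 ± 0.12 (limma adjusted p = 0.263), against 0.99 in WT. STP1 had a difference of -0.25 ± 0.15 (adjusted p = 0.388) and STP7 of 0.19 ± 0.13 (adjusted p = 0.482). STP7 was at 26.4, 18.7 and 22.5 FPKM under water and at 22.2, 27.1 and 28.1 FPKM with Pep1.

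Whether the Pep1 response differed between the genotypes was tested by the interaction. None of the 7 members and 0 of 18177 genes were called (limma, 0% of genes tested), with 1219 genes and 2 members at an unadjusted p under 0.05. Those 2 were STP14, with an interaction of -0.73 ± 0.17 (unadjusted p = 0.00118, adjusted p = 0.42), and STP1, at -0.48 ± 0.21 (unadjusted p = 0.0388, adjusted p = 0.717). For STP14 all 3 WT libraries with Pep1, at 126 to 156 FPKM, were above all 3 irr libraries with Pep1, at 84.1 to 114 FPKM. Such separation was seen in 12.8% of all genes tested, and it describes levels without testing the response. The interval for STP13 was wide, from -1.81 to 0.59 around -0.61, and that for STP3 ran from -0.50 to 0.62 around 0.06. Leaving out both irr libraries numbered 2 changed this, with 49 of 18177 genes and 2 members called: STP13 at -1.52 ± 0.13 (limma adjusted p = 0.00563) and STP4 at -1.08 ± 0.16 (adjusted p = 0.022). Those libraries were picked for their values of these same genes, so the calls are no independent result.

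Averaged over both genotypes, the Pep1 difference was called for STP14 (0.63 ± 0.09, limma adjusted p = 0.00156), STP3 (0.78 ± 0.13, adjusted p = 0.00415) and STP13 (1.04 ± 0.27, adjusted p = 0.0318). At this contrast 11.6% of all genes tested were called, 6.1% as rises, and 3 of 7 members rose and 0 fell. STP7 had a value of 0.30 ± 0.09 (adjusted p = 0.061), STP4 of 0.45 ± 0.19 (adjusted p = 0.143) and STP1 of -0.01 ± 0.10 (adjusted p = 0.95). STP14 and STP3 were called under all 22 alternatives. STP13 was not called without any 1 of the 6 WT libraries or irr Pep1 replicate 2 (adjusted p from 0.0532 to 0.0755; 0.00205 to 0.0755 over all alternatives). STP7 was called without WT water replicate 3 (0.0496), irr water replicate 1 (0.0347) or irr Pep1 replicate 1 (0.0442), with a range of 0.0347 to 0.21.

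**Figure D4:**
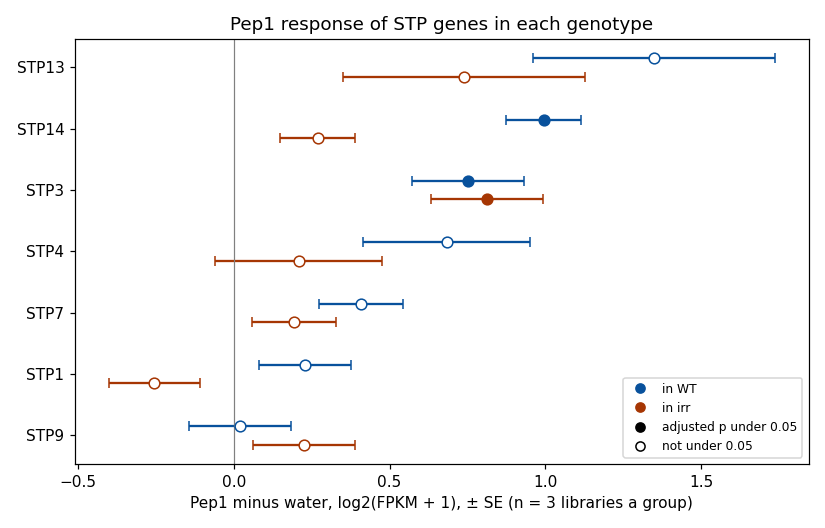
Differences between Pep1 and water on the log2(FPKM + 1) scale with their SE (x axis) for the 7 members tested, in WT (blue) and irr (brown), where filled points had an adjusted p under 0.05. STP14 and STP3 are filled in WT and STP3 in irr, and the errors are widest for STP13.

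STP9, described in the literature as a glucose carrier of pollen, marked the genotype. It was at 0.0450, 0.0739 and 0.0543 FPKM in WT under water and at 0.151, 0 and 0.0739 FPKM in WT with Pep1. In irr it was at 15.0, 13.5 and 8.86 FPKM under water and at 15.1, 14.7 and 13.5 FPKM with Pep1. The WT values correspond to 2, 2 and 2 reads under water and to 5, 0 and 2 reads with Pep1, against 572, 458 and 778 reads and 421, 406 and 379 reads in irr. In WT Pep1 replicate 2 the count of 0 allows a level of up to 0.102 FPKM, at the limit of 3 reads. The lowest irr value in FPKM came from the deepest library, of 56.5 M reads.

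Over the pooled libraries, irr held 204 times the STP9 level of WT under water (95% exact interval 93.7 to 557) and 185 times with Pep1 (89.5 to 461). The intervals cover counting error only, and reads are not independent molecules. They leave out the spread between libraries, and irr water replicate 3 gave 778 of the 1808 irr reads under water. They are no test of the genotypes, since STP9 was chosen for that difference. STP9 was the 1 member whose 6 irr libraries all lay above its 6 WT libraries, which 3.19% of all genes tested did, and it was chosen for this pattern. In irr the Pep1 difference of STP9 was 0.23 ± 0.16 and missed the threshold (95% interval -0.13 to 0.58, limma adjusted p = 0.5). The SE shares 1 spread over all 4 groups, and the WT libraries, near 0, varied little on the log2(FPKM + 1) scale. The irr water libraries lay 0.28, 0.14 and -0.42 from their mean, so the interval may be too narrow for irr. In WT, at 0 to 5 reads a library, a Pep1 difference of STP9 was not detectable at this depth.

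Other pollen transcripts were at or near 0 in both genotypes, with ANX1 the highest. Of 11 pollen markers, among them the pectin methylesterase gene VGD1 and the arabinogalactan gene AGP6, TIP1;3 and RALFL4 were at 0 in all 12 libraries. A further 8 reached at most 0.382 FPKM in any library. ANX1, a receptor kinase gene of the pollen tube, was at 0.983 to 1.69 FPKM with its highest value in WT. Their summed level ran from 1.31 to 1.87 FPKM in WT and from 1.1 to 2.02 FPKM in irr. The pollen carriers STP2 and STP6 were at 0 in all 6 irr libraries.

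The loci beside STP9 did not share its pattern. In the reference order, restricted to loci in the table, AT1G50290 stood at 13.96 ± 1.41 FPKM in WT and 11.8 ± 0.115 in irr under water. TAF15 [AT1G50300], which codes for a factor of the general transcription machinery, stood at 14.8 ± 0.633 and 14.3 ± 2.29 FPKM. THX [AT1G50320], a thioredoxin of the chloroplast, stood at 109 ± 3.82 and 115 ± 4.37 FPKM, and AT1G50325 was at 0 in all 12 libraries. For the 3 that were tested the genotype difference was between -0.22 and 0.08 under water and between -0.30 and 0.24 with Pep1, with limma adjusted p of 0.115 or more. Of the 19 tested neighbours of the 7 members other than STP12, 0 were called in any of the 4 comparisons of 2 groups (smallest limma adjusted p = 0.0627). Over all genes tested 3.47% and 1.99% were called for Pep1 in WT and irr. Between genotypes 3.92% were called under water and 1.53% with Pep1. A count of 0 among 19 is near those shares and does not set the neighbours apart.

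**Figure D5:**
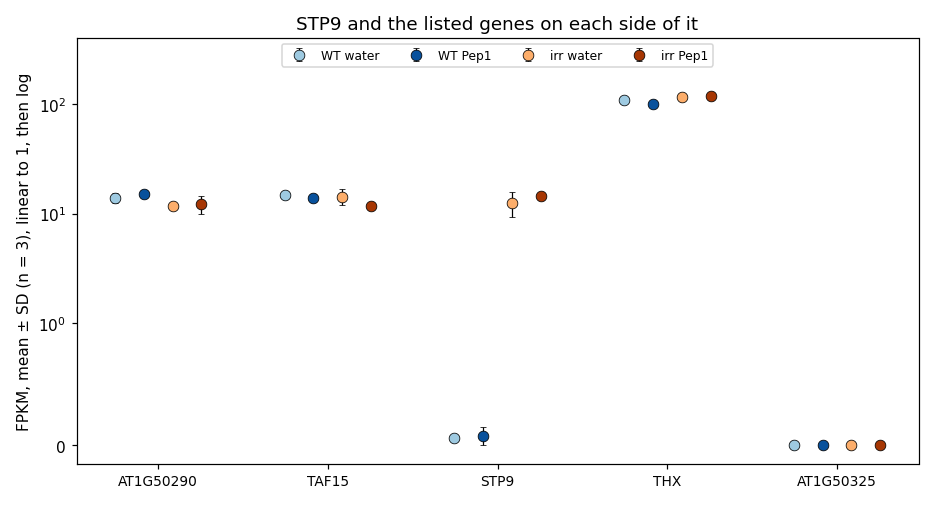
Mean FPKM ± SD of 3 libraries (y axis, linear up to 1 and log above) for STP9 and the 2 loci on each side of it in the reference order, by group. STP9 differs by genotype, while the 4 loci beside it stay at a like level in all groups.

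The genes whose pattern over the 12 libraries was most like that of STP9, by Pearson's r of log2(FPKM + 1), were AT2G04620, a zinc transporter-like gene (r = 0.987), AT1G51270 (r = 0.969), AT5G49780, of the leucine-rich repeat kinases (r = 0.967), GLP4 [AT1G18970], a germin-like gene (r = 0.951), and AT3G28193 (r = 0.951). All 5 share the division of the 12 libraries into 6 of each genotype. That follows from their choice by likeness to STP9 and is no separate result. Upward separation of all 6 irr libraries was seen in 3.19% of all genes tested. AT5G49780 and AT3G28193 had means below 1 FPKM in both WT groups and passed the expression filter only through irr. AT2G04620 was at 1.1 ± 0.112 and 1.005 ± 0.13 FPKM in WT under water and with Pep1, and at 4.58 ± 0.361 and 5.29 ± 0.631 in irr. GLP4 was at 1.87 ± 1.53 and 1.2 ± 0.463 FPKM in WT and at 13.9 ± 3.71 and 19.3 ± 5.61 in irr. Like STP9, AT3G28193 was near 0 in WT, at 0.0904 ± 0.157 and 0.148 ± 0.257 FPKM, and stood at 4.14 ± 0.587 and 2.73 ± 0.88 FPKM in irr.

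Beyond STP9, the genotypes were set side by side without a test. Under water 4 of the 8 genes, STP1, STP4, STP9 and STP14, were higher in every irr library than in every WT library and 0 were lower, where 17.7% of all genes tested were separated upward and 10.4% downward. With Pep1, STP4 and STP9 were separated upward and STP14 downward, beside 10.4% and 12.8% of all genes tested. The log2 differences between irr and WT under water were 3.64 for STP9, 1.02 for STP13, 0.98 for STP4, 0.50 for STP1, 0.27 for STP14, 0.25 for STP7 and -0.02 for STP3. With Pep1 they were 3.84 for STP9, 0.50 for STP4, 0.41 for STP13, -0.45 for STP14, and between 0.01 and 0.04 for STP1, STP3 and STP7. Without irr Pep1 replicate 2 the Pep1 values were 0.03 for STP13 and 0.24 for STP4, and without irr Pep1 replicate 1 that of STP13 was 0.63. Under water STP13 was at 1.55 without irr water replicate 2, and STP7 at 0.13 without irr water replicate 1 and 0.37 without irr water replicate 2. The STP9 figures understate its change, since they carry a pseudocount of 1. The genotype and Pep1 comparisons share groups, so the WT water libraries that are low for STP1, STP4 and STP14 enter both.

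STP13 and STP4 were the members most alike over the 12 libraries (Pearson's r = 0.938), and STP13 and STP7 followed (r = 0.867), while STP9 and STP14 had r = -0.11. These values are descriptions over libraries that share groups and handling. The genes most like STP13 were ABCG42 [AT4G15233], of the ABC transporters (r = 0.981), BIK1 [AT2G39660], a kinase that acts directly below pattern receptors (r = 0.972), OPT6 [AT4G27730], of the oligopeptide transporters (r = 0.970), Rap2.6L [AT5G13330], of the ERF family of transcription factors (r = 0.966), and AT1G11210 (r = 0.965). BIK1 stood at 19.5 ± 1.68 and 28.1 ± 1.71 FPKM in WT under water and with Pep1 and at 27.2 ± 8.08 and 35.4 ± 11.9 in irr. Its wider spread in irr goes with its choice by likeness to STP13 over these libraries and is no separate result.

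Other genes of sugar transport and use were taken from lists in order to place the STP genes. Of all genes tested 3.92% were called between genotypes under water and 1.53% with Pep1. For Pep1 against water 3.47% were called in WT, 1.99% in irr and 11.6% averaged over genotypes. Among SWEET genes, which code for carriers that let sugars leave cells, 6 of 17 were tested, and 0 rose and 0 fell in WT with Pep1 (limma, with 1 at an unadjusted p under 0.05). In irr 1 fell, SWEET11 [AT3G48740], a sucrose exporter of leaf veins, from 91.1 ± 14.5 to 31.3 ± 13.7 FPKM (-1.58 ± 0.23, limma adjusted p = 0.0171), and in WT it stood at 74.0 ± 5.55 and 44.3 ± 5.79 FPKM (-0.73 ± 0.23, adjusted p = 0.102; interaction -0.85 ± 0.33, adjusted p = 0.659). Averaged over genotypes SWEET11 fell by 1.16 (SE 0.16, adjusted p = 0.00204). Under water SWEET2 [AT3G14770], a carrier of the vacuole membrane, was higher in irr (0.55 ± 0.11, adjusted p = 0.0226) and SWEET17 [AT4G15920], a fructose carrier of the same membrane, was lower (-0.91 ± 0.19, adjusted p = 0.0297), and 0 of the 6 were called between genotypes with Pep1 (limma, 3 at an unadjusted p under 0.05).

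Of 9 sucrose symporter genes 5 were tested, and SUC1 [AT1G71880] rose with Pep1 averaged over genotypes (0.91 ± 0.19, limma adjusted p = 0.0135), while 0 were called by limma in the other comparisons, where 0 or 1 had an unadjusted p under 0.05. Of 13 further monosaccharide and polyol carriers tested, PMT5 [AT3G18830], a polyol and monosaccharide symporter, rose with Pep1 from 35.7 ± 4.42 to 84.5 ± 6.78 FPKM in WT (1.22 ± 0.20, adjusted p = 0.0114) and from 50.7 ± 10.7 to 96.5 ± 30.2 FPKM in irr (0.89 ± 0.20, adjusted p = 0.0483). It was the 1 of the 13 to be called in each genotype, and averaged over genotypes TMT1 [AT1G20840], of the vacuole membrane, and INT3 [AT2G35740], of the inositol transporter family, rose as well (0.36 ± 0.11, adjusted p = 0.048, and 0.34 ± 0.10, adjusted p = 0.0454). TMT2 [AT4G35300], a sugar carrier of the vacuole membrane, was lower in irr under water (-0.40 ± 0.09, adjusted p = 0.0382).

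Invertases split sucrose into the hexoses that STP proteins carry. Of 6 tested, the vacuolar VI2 [AT1G12240] rose with Pep1 in WT, from 142 ± 10.7 to 228 ± 9.31 FPKM (0.68 ± 0.15, limma adjusted p = 0.0327), and 0 were called in irr (1 at an unadjusted p under 0.05). In irr VI2 stood at 240 ± 34.5 and 196 ± 44.6 FPKM (-0.30 ± 0.15, adjusted p = 0.315), and its interaction was -0.98 ± 0.21 (adjusted p = 0.349). Under water VI2 (0.74 ± 0.15, adjusted p = 0.026) and the cell wall gene CWINV6 [AT5G11920] (1.59 ± 0.33, adjusted p = 0.0267) were higher in irr than in WT. CWINV6 stood at 0.849 ± 0.345 FPKM in WT and 4.58 ± 0.997 in irr. Of 5 hexokinase genes tested, 0 were called by limma in any comparison, with at most 2 at an unadjusted p under 0.05.

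Sugar starvation raises a known set of genes, and STP1 is itself repressed by sugar. Of 9 such genes, all tested, 3 rose with Pep1 in WT and 0 in irr (limma, with 5 and 2 at an unadjusted p under 0.05). Over all genes tested 2.13% rose in WT and 0.737% in irr, and 3797 and 3315 of 18177 had an unadjusted p under 0.05 (limma). Averaged over genotypes 3 of the 9 rose, where 6.1% of all genes tested did. These were BGLU30 [AT3G60140], SEN1 and DIN4 (limma adjusted p = 0.0441, 0.0283 and 0.0128). The interaction, the difference between genotypes in the Pep1 response, was called for 0 of the 9 (limma, 5 at an unadjusted p under 0.05). The 3 in WT were SEN1 [AT4G35770] (0.75 ± 0.15, limma adjusted p = 0.0221), DIN4 [AT3G13450], of branched-chain amino acid breakdown (0.65 ± 0.12, adjusted p = 0.0167), and the trehalose phosphate synthase homologue TPS8 [AT1G70290] (0.39 ± 0.09, adjusted p = 0.0364). Under water ASN1 [AT3G47340], an asparagine synthetase gene, was higher in irr, from 992 ± 104 to 1624 ± 99.96 FPKM (0.71 ± 0.17, adjusted p = 0.0415). The list's median log2 difference with Pep1 was 0.36 in WT and 0.03 in irr, against 0.04 and -0.00096 over all genes tested. Of the 3 sugar-induced genes 1 was tested, and it was not called.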

How the data were processed

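RNA from 12 seedling pools gave paired-end libraries, stated at 20 M raw reads a sample, per the labels' protocols. The authors deposited 1 table of FPKM values, with 1 column per library; aligner, counter, genome build and annotation: not given in the sources used here. No coordinates or sequences are printed for that reason. Groups were taken from the sample titles. Since FPKM is whole reads over length and library total, totals and reads were recovered from the steps in the values (within 0.05 of a read). On simulated data 12 of 12 totals were recovered, as were all reads of 98% of 200 genes with a library of 5 reads or fewer. Totals are called reads and set counting error only; intervals and limits cover that alone. The median total was 20.2 M (1 M is 1000000).

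Genes with at least 1 FPKM in at least 3 libraries were kept (18177), and log2(FPKM + 1) went into limma 3.58.1 (R 4.3.3), with a separate mean for each of the 4 groups, 12 libraries, 8 residual degrees of freedom and a variance trend. Each p-value is two-sided and was adjusted by Benjamini-Hochberg across the genes kept, and a gene was called under 0.05. Simulated data of 9179 genes for the wild-type Pep1 comparison gave calls for 88% of 100 genes set to a 2-fold change and for 100% of 100 set to 4-fold, and 6% of calls were genes left unchanged. The same spread beyond counting error was set for every gene and group. These shares therefore do not cover genes whose replicates vary widely, such as STP13 in irr.

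The members and lists were chosen with earlier results of these data known. Of 114 list entries 104 were kept, those whose symbol the reference gives. Named genes are the 8 members, up to 4 members of each list that passed with the largest change, the 5 genes most like STP9 and STP13, and the 2 loci on each side of a member. Some genes that the rule names are left out of the text. Other settings tried were pseudocounts of 0.1 and 5, filters, scalings, the replicate block, no trend, quality weights, fits restricted to the 2 groups of a comparison, and omission of each library in turn. Leaving out both irr libraries numbered 2 was added after the data were seen. Promoter motifs and protein identity were planned but not analysed here.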

Additional observations from a re-analysis of the deposited data

How the results depend on the processing

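STP14 kept its call for Pep1 in WT, and STP14 and STP3 theirs for the mean Pep1 difference, under every alternative tried. The number of members called for Pep1 in WT was 2, and was 1 with no filter, with the replicate block and with no trend. It was 5 in a fit restricted to the 2 groups, which called 1974 of all genes against 630, and 1 to 3 without 1 library. In irr the number of members called was 1. It was 0 with no filter, with the replicate block, with no trend and in a fit restricted to the 2 groups, and 0 to 1 without 1 library. STP3 carries these lost calls (adjusted p of 0.0659 in WT and 0.0717 in irr with the replicate block), and STP13 lost its mean difference under the block (0.0589) and with no filter (0.0642). The mean difference called 2 to 4 members and the interaction 0 under every planned setting. Members separated without overlap between genotypes with Pep1 were 3, 2 upward and 1 downward, beside 10.4% and 12.8% of all genes tested. They were 2 with library medians made equal and 3 to 5 without 1 library. Fewer libraries make separation easier for any gene, and the share of all genes was not counted there.

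With both irr libraries numbered 2 left out, picked after their STP4 and STP13 values were seen, 4 members were called for Pep1 in WT, 0 in irr and 2 for the interaction (STP13 and STP4). Over all genes this setting called 1269 for Pep1 in WT, 27 in irr and 49 for the interaction. The differences that changed sign were then STP4 (-0.39) and STP13 (-0.17) in irr, the mean of STP1 (0.0007950) and the interaction of STP3 (-0.20).

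Differences that changed sign were all of members not called. With quantile normalization these were STP9 in WT (-0.078) and the mean for STP1 (0.030). Without 1 library the values ran from -0.030 to 0.072 for STP9 in WT, from -0.13 to 0.43 for STP4 in irr, from -0.10 to 0.067 for the mean of STP1, from -0.14 to 0.22 for the interaction of STP3 and from -0.0048 to 0.34 for that of STP9. The genotype difference of STP9 under water was 6.28 and 1.77 at pseudocounts of 0.1 and 5, and the cause of the other changes was not tested.

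Over all genes, calls for Pep1 were 630 in WT (105 to 2025 over the alternatives) and 362 in irr (0 to 1405; 0 in the fit restricted to both irr groups). They were 2100 for the mean (852 to 3425), 0 for the interaction (0 to 49), and 713 and 278 between genotypes under water and with Pep1 (46 to 1962 and 18 to 1821). With library medians made equal, rises and falls were 310 and 316 for Pep1 in WT in place of 387 and 243, 973 and 1382 for the mean in place of 1109 and 991, and 447 and 294 between genotypes under water in place of 538 and 175. Replicate numbers were not taken as pairs: same-numbered libraries had correlated deviations of 0.03 to 0.05 in WT and of -0.52 to -0.24 in irr. In WT 6 of 6 libraries were closest to their own number and in irr 0 of 6. Between genotypes the correlations were 0.02 to 0.19 with Pep1, where 5 of 6 libraries were closest to their own number. Under water they were -0.09 to 0.01, with 0 of 6. STP9 in WT, at 0 to 5 reads a library, limits any statement on it there.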
